A study of Mus musculus with 6 samples.

Results

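Aminoacyl-tRNA synthetases are the enzymes that join each amino acid to its transfer RNA, and the genes for them were followed here in mouse MMH liver cells that expressed Prox1. The 36 genes were chosen by name: 20 for the cytosolic enzymes and 16 for the mitochondrial enzymes, whose symbols end in 2. A gene entered when at least 1 array feature with exactly 1 gene symbol carried its name, which held for 35 of the 36 genes (68 of 41230 features with a value). No feature was named for Dars, the cytosolic aspartyl enzyme, and Mars was listed under its newer symbol Mars1. No measured value enters the rule, but the family was picked with results of these data known, so counts and values over it are a description.

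The labels give 2 kinds of cells: MMH cells with the vector pCDNA3.1 (the control) and MMH-Prox1 cells, which express the homeobox transcription factor Prox1. MMH stands for Met murine hepatocytes, liver cells of the mouse, and the titles carry the mark ED14. Each of 6 arrays in 2 colours compared both RNAs, with Prox1 RNA in Cy5 on 3 arrays and in Cy3 on the other 3. Whether the cells were 1 clone, a pool or separate cultures is not given in the sources used here, so p-values may measure technical spread only.

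The deposited value behaves as a log ratio in which every array has a standard deviation (SD) of 1 over its features. It is called a score in SD units here and is not a fold change. The arrays that carried Prox1 RNA in Cy5 are called the Cy5 arrays below. The 3 deposited columns of the opposite orientation held the same value for each feature, although the labels give 1 of those RNAs another extraction (Trizol in place of RNeasy), so they counted once, as the Cy3 profile. This leaves 4 profiles. Positive scores likely mean higher with Prox1 in both orientations, and no sign was turned, because 1 of 3 Prox1 features stood at 5.27 ± 0.14 (SD, n = 3 Cy5 arrays) and at 6.60 in the Cy3 profile. The other Prox1 features stood at 0.41 ± 0.16 and 0.04 ± 0.12 on the Cy5 arrays and at −0.29 and −0.38 in the Cy3 profile. The labels do not state the direction. Over features the Cy3 profile correlated with the Cy5 arrays at r = 0.397 to 0.444, and the Cy5 arrays correlated with each other at 0.915 to 0.930. The number of arrays limits the precision, and signal over background was not analysed here.

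The cytosol and the mitochondrion translate with separate sets of tRNAs, and most amino acids have 1 nuclear gene for each compartment. Several cytosolic synthetases are held in a multi-synthetase complex by the scaffold proteins Aimp1, Aimp2 and Eef1e1. The others are called free here, which means only that they are not held in this complex. Synthetases fall into class I and class II by the fold of the catalytic domain. Kars and Gars each serve both compartments from 1 gene. Mitochondria make glutaminyl-tRNA in another way, by amidation of a tRNA that Ears2 first charges with glutamate. Uncharged tRNA activates the kinase Gcn2 (Eif2ak4), and the transcription factor Atf4 that is translated in response is known to act on many cytosolic synthetase genes. In liver the family serves a high output of secreted protein.

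Promoter sequences are shown for the synthetase genes that hold a short motif of one of the factors named for this family. The 250 bases before the gene start were searched on both strands in RefSeq's promoter table (build GRCm38.p6), which held 26 of the 35 measured genes, 12 cytosolic and 14 mitochondrial. The motif TGATGNAA is the core of elements that Atf4 binds with partner factors, and CACGTG is the E-box known for Myc and other factors. TGATGNAA was found before 3 of the 26 genes, Aars, Gars and Tars, against 3.18% of 21262 promoters of protein-coding genes. CACGTG was found before 3 of the 26, Aars, Farsb and Iars, against 6.63% of those promoters. All these genes are on the cytosolic list, although Gars serves both compartments, and 0 of the 14 mitochondrial genes had a match in this window. At shares of 3.18% and 6.63% of promoters, 14 genes are too few to read 0 matches as a difference between the compartments. A match is a description of letters and not a binding site. In the lines below capitals mark the motif, which reads as its reverse complement where it lies on the opposite strand, and no TGATGNAA match overlaps a CACGTG match, although the windows printed for Aars overlap.
Aars, TGATGNAA on the opposite strand, chr8:111033704-111033763, plus strand: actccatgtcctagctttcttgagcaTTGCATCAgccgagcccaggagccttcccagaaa
Gars, TGATGNAA on the opposite strand, chr6:55037945-55038000, plus strand: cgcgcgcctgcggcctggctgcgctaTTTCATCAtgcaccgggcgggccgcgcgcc
Tars, TGATGNAA on the opposite strand, chr15:11399659-11399699, minus strand: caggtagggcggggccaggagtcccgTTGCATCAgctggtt
Aars, CACGTG, chr8:111033670-111033727, plus strand: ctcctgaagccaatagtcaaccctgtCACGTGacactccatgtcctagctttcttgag
Farsb, CACGTG, chr1:78488905-78488962, minus strand: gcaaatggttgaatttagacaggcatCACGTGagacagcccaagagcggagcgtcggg
Iars, CACGTG, chr13:49682035-49682092, plus strand: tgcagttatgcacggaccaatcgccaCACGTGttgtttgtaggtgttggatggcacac

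The median of the cytosolic synthetase genes lay above that of the mitochondrial ones in each of the 4 profiles. The median score of the 19 cytosolic genes was 0.53, 0.49 and 0.65 on the Cy5 arrays and 0.37 in the Cy3 profile. The median of the 16 mitochondrial genes was −0.23, −0.11 and −0.17 on the same 3 arrays and −0.13 in the other profile. All features tested had medians of 0.07 on each of those 3 arrays and −0.03 in the Cy3 profile, between the 2 gene groups every time. The difference between the medians was 0.73 ± 0.12 (SD, n = 3 Cy5 arrays) and 0.49 in the Cy3 profile. No test was run on these medians. They depend on how the features of a gene are combined: with the median of the features in place of their mean the difference in effect was 0.38 instead of 0.62, and the cytosolic median 0.25 instead of 0.46.

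**Figure D1:**
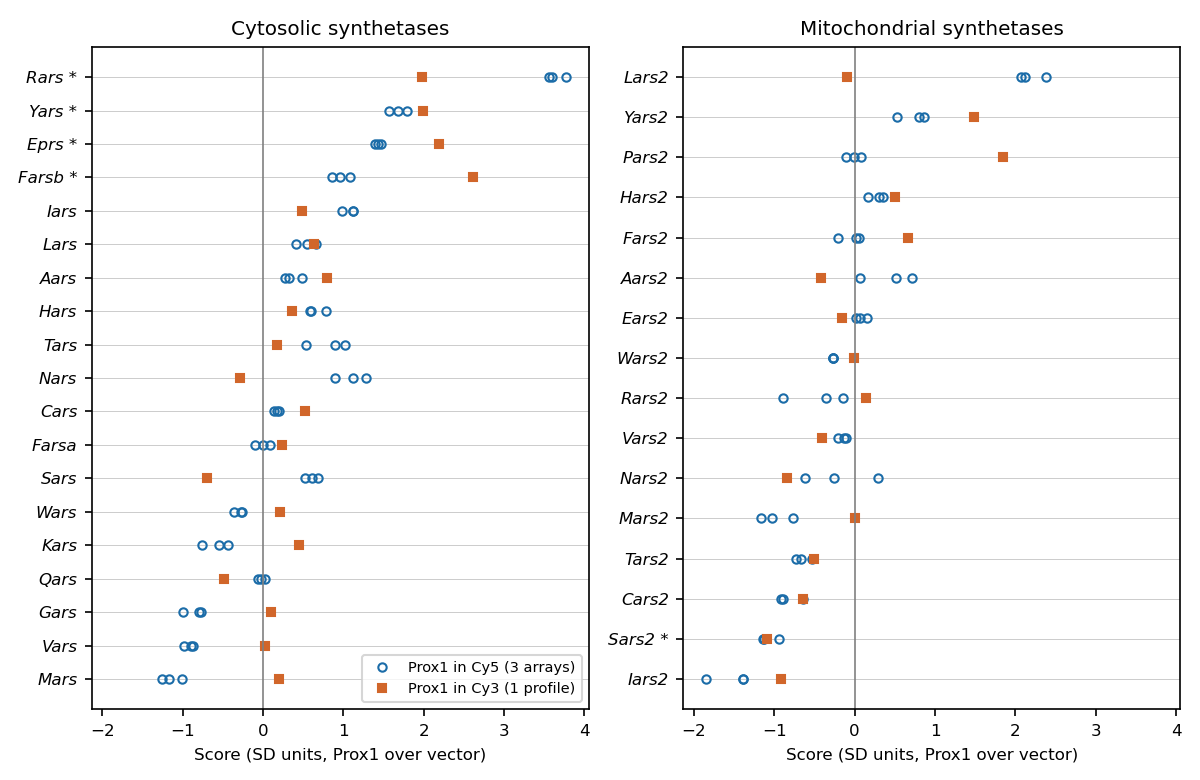
Score of each synthetase gene (SD units, Prox1 over vector) on the 3 Cy5 arrays (open circles) and in the Cy3 profile (filled squares), ordered by the effect in limma; an asterisk marks an adjusted p under 0.05. Rars has the highest effect and Iars2 the lowest, and for genes such as Lars2, Nars and Sars the square lies on the other side of 0 from the circles.

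The effect of Prox1 on a gene was estimated in limma from the 4 profiles with the dye orientation as a random block, so that the difference between the orientations enters its error. The block used 1 correlation for all genes (0.793), so the SE of a gene carries its own difference only in part. With the orientation means as 2 replicates 0 of all features passed. At an adjusted p of 0.05 over 28618 genes and unnamed features, 4 of the 19 cytosolic genes rose (Rars, Yars, Eprs and Farsb) and 0 fell, and 1 of the 16 mitochondrial genes fell (Sars2) and 0 rose. In this fit 8.41% of all features passed, with 3.38% of all features rising and 5.03% falling. Of the 19088 genes with a symbol, the like background for named genes, 740 rose and 1166 fell. Without the adjustment 8 cytosolic and 5 mitochondrial genes had p under 0.05, as did 5804 of all 28618 features and 4548 of the 19088 genes with a symbol. With a fixed dye term, where the error leaves out the difference between the orientations, 26 of the 35 genes passed, 11 cytosolic up, 4 down, 5 mitochondrial up and 6 down. That model called 45% of all features, 25.3% up and 19.7% down, and of the 19088 genes with a symbol 5198 up and 4367 down. The difference between the orientations itself passed for 17 of the 35 genes, against 39.1% of all features and 7738 of the 19088 genes with a symbol. Effects above 0 were found for 12 of 19 cytosolic and 6 of 16 mitochondrial genes, against 54.9% of all features and 10270 of the 19088 genes with a symbol.

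Rars, which encodes arginyl-tRNA synthetase, a member of the multi-synthetase complex, had the highest effect of the family. Its scores were 3.56, 3.60 and 3.77 on the Cy5 arrays and 1.98 in the Cy3 profile. All 4 profiles were above 0, and the Cy3 profile lay well below the other arrays. The effect was 2.87 ± 0.39 SD units (SE, 4 profiles; limma adjusted p = 0.0108), rank 31 from the top of 19088 genes. The difference of 1.67 between the orientations gave 0.0018 as limma's adjusted p for the dye term, a test whose error comes from the 3 Cy5 arrays alone, since the other orientation is 1 profile. Only 1 feature measured Rars.

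Yars encodes the free tyrosyl-tRNA synthetase. Its scores of 1.68, 1.80 and 1.56 on the Cy5 arrays and 1.99 in the Cy3 profile were all above 0 and close to each other. The effect was 1.82 ± 0.22 (SE; limma adjusted p = 0.0068), rank 193 from the top, again from 1 feature. The test between its orientations gave an adjusted p of 0.18.

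Eprs encodes the enzyme that charges both glutamate and proline, 2 catalytic parts in 1 protein of the complex. It had scores of 1.40, 1.47 and 1.43 on the Cy5 arrays and 2.18 in the Cy3 profile. The effect was 1.78 ± 0.24 (SE; limma adjusted p = 0.0103). Eprs is the only called gene of the family with more than 1 feature. Its 4 features had effects of 1.37, 1.83, 1.96 and 1.96, of which 3 passed when every feature was tested singly, a fit that called 7.66% of all features.

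Phenylalanyl-tRNA synthetase is built from the alpha subunit of Farsa and the beta subunit of Farsb, and the genes of these subunits differed in score. Farsb had 0.96, 0.85 and 1.08 on the Cy5 arrays and 2.61 in the Cy3 profile. Its effect of 1.73 ± 0.39 (SE; limma adjusted p = 0.050) lay just under the threshold, and the call was lost on leaving out any 1 of the Cy5 arrays (adjusted p = 0.095 to 0.12). Farsa had −0.10, 0.09 and 0.0019 on the Cy5 arrays and 0.24 in the Cy3 profile, an effect of 0.11 ± 0.21 (adjusted p = 0.94), and its 4 features lay between −0.08 and 0.19. In every profile Farsb stood above Farsa, a difference that was not tested.

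The other members of the multi-synthetase complex did not pass. Iars, the isoleucyl enzyme, had scores of 0.98, 1.12 and 1.12 on the Cy5 arrays and 0.48 in the Cy3 profile, and Lars, the leucyl enzyme, 0.54, 0.41 and 0.65 with 0.64. As means of their features both genes were above 0 in all 4 profiles, with effects of 0.80 ± 0.23 and 0.58 ± 0.21 (limma adjusted p = 0.099 and 0.18). Single features differed: in the Cy3 profile those of Iars stood at −0.47, 0.09 and 1.82, and those of Lars at −0.14, 0.76 and 1.30. Mars, the methionyl enzyme, stood at −1.26, −1.01 and −1.18 on the Cy5 arrays but at 0.20 in the Cy3 profile. Kars, the lysyl enzyme of both compartments, stood at −0.44, −0.55 and −0.76 against 0.45. In both the sign changed with the orientation, and the effects were −0.52 ± 0.35 and −0.11 ± 0.31. For Mars the change came from the feature with a mean of −1.68 on the Cy5 arrays and 0.77 in the Cy3 profile. Its other feature was below 0 in every profile, at −1.08, −0.48 and −0.30 on the Cy5 arrays and −0.38 in the Cy3 profile. Qars, the glutaminyl enzyme, had an effect of −0.23 ± 0.21. Over the 7 measured genes of the complex the median effect was 0.58, with 2 rises and 0 falls, and over the 12 free cytosolic genes it was 0.39, with 2 rises and 0 falls. All 19088 genes with a symbol had a median of 0.03, with 740 rises and 1166 falls.

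The scaffold proteins of the complex were also measured. Eef1e1 rose, with scores of 0.95, 0.88 and 0.94 on the Cy5 arrays, 1.42 in the Cy3 profile and an effect of 1.15 ± 0.21 (SE; limma adjusted p = 0.0268). Aimp2 had nearly equal scores of 0.82, 0.84 and 0.85 on the Cy5 arrays and 3.08 in the Cy3 profile, so the orientations agreed in sign and not in size. Its effect of 1.88 ± 0.49 did not pass (adjusted p = 0.075), and neither did that of Aimp1 at 0.20 ± 0.20 (adjusted p = 0.77).

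The other free cytosolic synthetases gave smaller effects, and none passed. Aars (alanyl) stood at 0.56 ± 0.22, Hars (histidyl) at 0.52 ± 0.21, Tars (threonyl) at 0.51 ± 0.31 and Cars (cysteinyl) at 0.33 ± 0.20. As a mean of its features each was above 0 in all 4 profiles, but single features of Aars, Hars and Cars fell below 0 in some profiles. Nars, the asparaginyl enzyme, had 1.28, 0.90 and 1.12 on the Cy5 arrays and −0.29 in the Cy3 profile. Sars, the seryl enzyme, had 0.61, 0.52 and 0.69 against −0.70. These genes were clearly positive on 3 arrays and negative in the other profile, so the effects were 0.46 ± 0.37 for Nars and −0.0002 ± 0.33 for Sars. The valyl and glycyl enzymes went the other way: Vars stood at −0.87, −0.98 and −0.90 on the Cy5 arrays and at 0.02 in the Cy3 profile, and Gars at −0.77, −1.0 and −0.79 against 0.10. Wars (tryptophanyl) had an effect of −0.07 ± 0.21. In all, 10 of 19 cytosolic genes were positive in all 4 profiles and 0 were negative in all 4, against 22.3% and 19.5% of all features. Among 19088 genes with a symbol 4570 and 4281 did so.

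Among mitochondrial synthetases the sign that all 4 profiles shared was more often negative: 6 of 16 genes were negative in all 4 profiles and 2 were positive, Hars2 and Yars2. Of 19088 genes with a symbol 4281 were negative and 4570 positive in all 4, and of all features 19.5% and 22.3%. Sars2, which charges mitochondrial serine tRNAs, fell. Its scores were −1.13, −1.14 and −0.94 on the Cy5 arrays and −1.09 in the Cy3 profile, nearly the same in both orientations. The effect was −1.08 ± 0.21 (SE, 4 profiles; limma adjusted p = 0.0298). The call was lost without any 1 of the Cy5 arrays (adjusted p = 0.058 to 0.079), though the effect stayed between −1.06 and −1.12.

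Iars2 had the lowest effect of the family at −1.25 ± 0.32, and it did not pass (limma adjusted p = 0.069). Its scores were −1.39, −1.39 and −1.85 on the Cy5 arrays and −0.92 in the Cy3 profile. All lay below 0. Cars2 and Tars2, for mitochondrial cysteine and threonine tRNAs, were also below 0 in all profiles, with effects of −0.74 ± 0.23 and −0.58 ± 0.20. Smaller shared negative scores gave Vars2 an effect of −0.27 ± 0.19 and Wars2 one of −0.15 ± 0.19. The Cy3 score of Wars2 was close to 0 at −0.014, and its features had means of −1.02, −0.26, 0.10 and 0.11 on the Cy5 arrays.

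Yars2, the mitochondrial tyrosyl enzyme, was positive throughout, at 0.80, 0.52 and 0.87 on the Cy5 arrays and 1.48 in the Cy3 profile (effect 1.08 ± 0.28, limma adjusted p = 0.078). Lars2 and Pars2 had large scores in 1 orientation only. Lars2, the mitochondrial leucyl enzyme, stood at 2.38, 2.08 and 2.11 on the Cy5 arrays and at −0.09 in the Cy3 profile. Pars2, the mitochondrial prolyl enzyme, stood at 0.08, −0.11 and −0.0046 on the Cy5 arrays and at 1.85 in the Cy3 profile. The effects were 1.13 ± 0.51 and 0.85 ± 0.42, and neither passed (adjusted p = 0.30 and 0.36). The other 7 mitochondrial genes (Aars2, Ears2, Fars2, Hars2, Mars2, Nars2 and Rars2) had effects between −0.53 and 0.38, and none of these passed.

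Genes for the same amino acid in the cytosol and the mitochondrion can be set side by side in 17 pairs, where Eprs pairs with both Ears2 and Pars2 and Fars2 with both subunits of the cytosolic enzyme. The cytosolic gene had the higher score in all 4 profiles in 10 of the 17 pairs, the mitochondrial gene in 0, and the order changed between profiles in 7. The pairs share genes and arrays and are a description. No like count was made for pairs of other genes, so these counts have no background. A constant order over profiles also carries little weight, because the Cy5 arrays correlated with each other at 0.915 to 0.930. The arginine pair was farthest apart, with Rars above Rars2 by 1.83 to 4.46 SD units over the 4 profiles. Iars lay above Iars2 by 1.40 to 2.97, Sars above Sars2 by 0.39 to 1.74 and Yars above Yars2 by 0.51 to 1.27. For leucine the effect of the mitochondrial gene was the higher one (Lars2 1.13, Lars 0.58). For methionine both effects were alike (Mars −0.52, Mars2 −0.53). Both genes, Mars as the mean of its features, were below 0 on every Cy5 array and above 0 in the Cy3 profile.

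**Figure D2:**
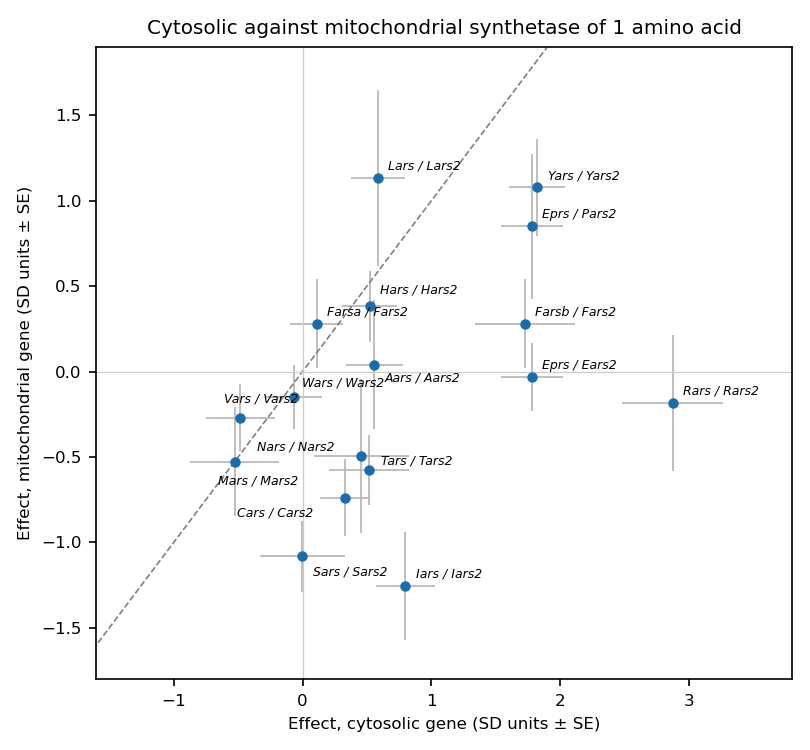
Effect of Prox1 on the cytosolic gene (horizontal axis) and on the mitochondrial gene for the same amino acid (vertical axis), in SD units with SE bars from limma, 4 profiles; the dashed line marks equal effects. Of the 17 pairs 14 lie below the line, where the cytosolic gene has the higher effect, and Rars with Rars2 lies farthest from it. Some of the 14 lie close to the line, such as Mars with Mars2 (difference 0.0018) and Wars with Wars2 (0.083).

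By catalytic class, the 18 measured class I genes had a median effect of −0.11, with 2 rises (Rars and Yars) and 0 falls, and the 16 class II genes a median of 0.20, with 1 rise (Farsb) and 1 fall (Sars2). Eprs holds a part of either class and was left out of both lists. The 12 cytosolic synthetases known as Atf4 targets had a median of 0.49 with 2 rises, Yars and Eprs, and 0 falls. Among 19088 genes with a symbol there were 740 rises and 1166 falls. Of the genes with a TGATGNAA motif before the start, Aars and Tars had positive effects and Gars a negative one, and none of the 3 passed.

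Of the 35 genes 16 were measured by 1 feature and 19 by 2 to 5, and in 16 of the 19 all features gave effects of 1 sign. An effect averages the orientations, so such features can still disagree within 1 orientation. On the Cy5 arrays the features of Nars2 had means of −1.15 and 0.76, those of Qars −0.68, 0.03 and 0.59, and those of Wars −0.65 and 0.04. The range between the features of a gene had a median of 0.31 SD units. The widest belonged to Aars, whose 5 features ran from 0.06 to 1.57. Its highest feature stood at 0.39, 0.87 and 0.65 on the Cy5 arrays and 2.65 in the Cy3 profile. The gene mean of Aars therefore rests mainly on 2 of 5 features. The genes with features of both signs were Ears2, Farsa and Wars2. Called genes other than Eprs have no further feature to set beside their value.

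**Figure D3:**
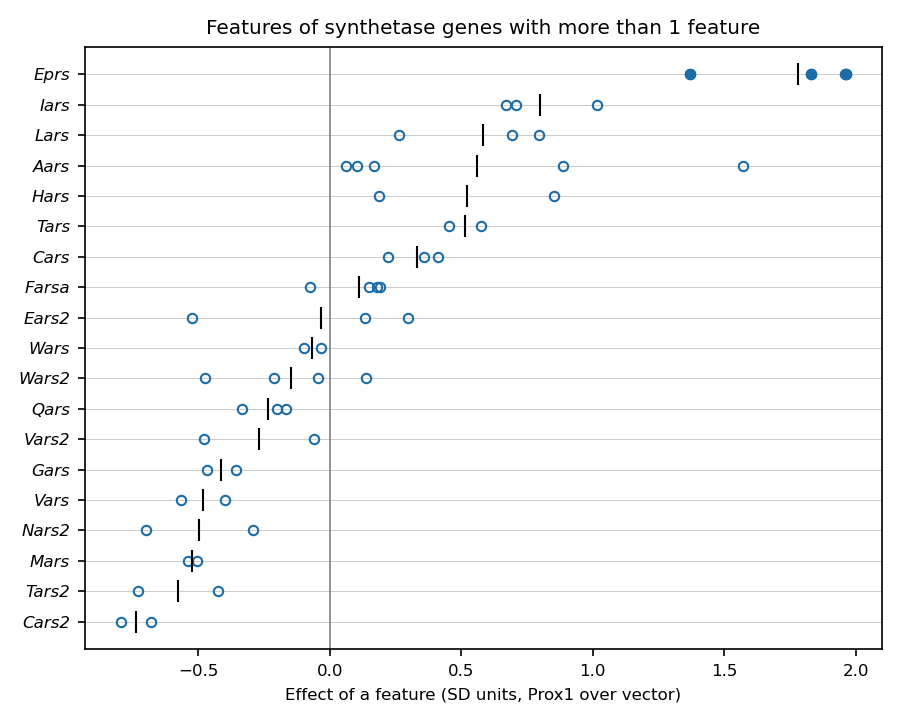
Effect of each feature (circles, SD units, Prox1 over vector) for the 19 synthetase genes with more than 1 feature; filled circles had an adjusted p under 0.05 when limma tested every feature singly, and black ticks mark the effect of the gene. The 4 features of Eprs lie between 1.37 and 1.96, and those of Aars spread from 0.06 to 1.57.

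Genes around the synthetases in the pathway were grouped in lists by function. Of all 19088 genes with a symbol 740 rose and 1166 fell, which is the background for the counts on these lists. Of 30 measured genes of tRNA processing and export 4 rose and 0 fell, with a median effect of 0.43. They were Rpp30 (2.74 ± 0.24 SD units) and Pop4 (1.63 ± 0.21), which encode subunits of the tRNA-trimming enzyme RNase P, Elac1, which encodes an enzyme that trims the other end of tRNA (2.08 ± 0.32), and Trmt10c of the mitochondrial RNase P (1.87 ± 0.39), which is named because the count was small. Their limma adjusted p-values were 0.0024, 0.0095, 0.0156 and 0.0387. Rpp30 stood at 2.41, 2.37 and 2.42 on the Cy5 arrays and 3.13 in the Cy3 profile.

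In mitochondrial amidation and formylation Gatc, a subunit of the amidase that finishes glutaminyl-tRNA, rose with scores of 1.40, 1.55 and 1.86 on the Cy5 arrays and 1.58 in the Cy3 profile (1.59 ± 0.27, limma adjusted p = 0.0211). Its partner subunits Qrsl1 and Gatb had effects of 0.55 ± 0.24 and −0.36 ± 0.45 and did not pass, so 1 of 4 genes on that list rose and 0 fell. For all genes with a symbol these counts were 740 and 1166 of 19088. Among synthetase-like genes Yrdc, which acts in a modification of tRNAs next to the anticodon, rose by 1.03 ± 0.21, and Dtd2 fell by 0.96 with an SE of 0.21 (adjusted p = 0.0373 and 0.0434). The other 4 measured genes of that list did not pass, among them Aarsd1, which encodes an editing enzyme for mischarged alanine tRNA (0.71 ± 0.22, adjusted p = 0.12).

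Translation factors did not pass in either compartment in limma with the random block. Of 8 genes on the cytosolic elongation factor list 0 passed. The 2 with an unadjusted p under 0.05 were Eef2k and Eef1akmt1, which encode enzymes that modify elongation factors and are not elongation factors. Of 10 mitochondrial translation factor genes 0 passed and 2 had an unadjusted p under 0.05. At that unadjusted p were 5804 of all 28618 features and 4548 of 19088 genes with a symbol. At the adjusted threshold 8.41% of all features passed, and of the 19088 genes with a symbol 740 rose and 1166 fell. At such shares lists of 8 and 10 genes are too short to read 0 calls as a result about translation factors. With the fixed dye term 6 genes of the cytosolic list rose, Eef1akmt1 among them, and 1 fell, Eef2k. On the mitochondrial list 5 rose and 1 fell, and that model called 45% of all features, 25.3% up and 19.7% down. The median score of the 8 genes on the cytosolic list was 0.75 to 1.0 on the Cy5 arrays and −0.13 in the Cy3 profile. Eef2, which moves the ribosome along, had an effect of 0.95 ± 0.63, and its kinase Eef2k one of −1.18 ± 0.35 (limma adjusted p = 0.55 and 0.11). Eef1akmt1, which encodes a methyltransferase of elongation factor 1 alpha, had an effect of 1.08 ± 0.38 (adjusted p = 0.17). In the mitochondrial list the initiation factor gene Mtif3 stood at 0.88 ± 0.26, the ribosome recycling factor gene Mrrf at 0.56 ± 0.22 and Gfm2, which also acts in recycling, at 0.84 ± 0.35 (adjusted p = 0.105, 0.227 and 0.256).

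In the list of uncharged tRNA sensing and the Atf4 pathway 6 of 19 genes rose and 1 fell, with a median effect of 0.44. Over all 19088 genes with a symbol 740 rose and 1166 fell, with a median of 0.03. The gene with the smallest p was Mthfd2, an enzyme of mitochondrial folate metabolism (2.09 ± 0.27, limma adjusted p = 0.0086). Ppp1r15a, whose product restores translation by directing the dephosphorylation of eIF2 alpha, rose by 3.04 ± 0.47 (adjusted p = 0.0153). The kinase gene Eif2ak1, known for its control by heme, was the fall, at −1.49 ± 0.23 (adjusted p = 0.0145).

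**Figure D4:**
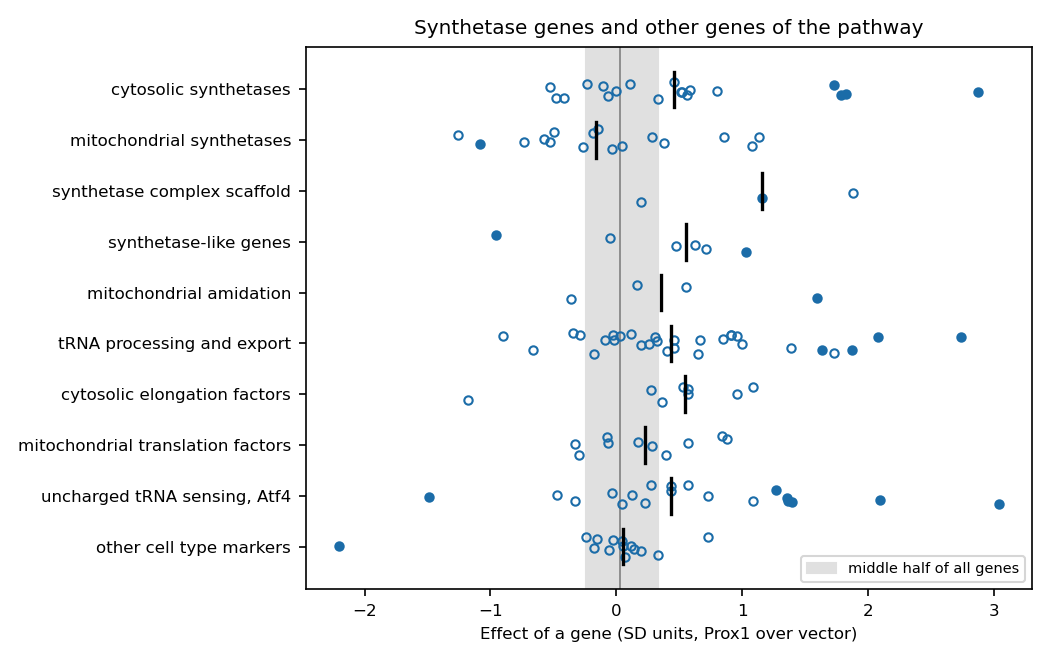
Effect of Prox1 (SD units) on each measured gene of the synthetase lists and of the lists around them; filled circles passed an adjusted p of 0.05 in limma, black bars mark list medians, and the grey band spans the first to the third quartile of all genes with a symbol (−0.25 to 0.33). The cytosolic synthetases have a median of 0.46 and the mitochondrial ones of −0.17.

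The scores are ratios and hold no level, so the presence of a cell type cannot be read from them. Of 14 measured markers of fibroblasts, endothelium, leukocytes and erythroid cells 0 rose and 1 fell, with a median effect of 0.05 and median scores of 0.02 to 0.11 on the Cy5 arrays and −0.07 in the Cy3 profile. The fall was the haemoglobin gene Hba-a1 (−2.21 ± 0.26, limma adjusted p = 0.0064). Among all 19088 genes with a symbol 740 rose and 1166 fell. The fibroblast markers Dcn and Col3a1, named for their small p, had effects of 0.73 ± 0.22 and 0.33 ± 0.20 and did not pass (adjusted p = 0.12 and 0.47). The other measured fibroblast markers had effects on both sides of 0, from −0.24 to 0.19, and none passed. The part of other cells in the results was not tested, and in RNA from whole cultures fewer cells of a type and less RNA per cell cannot be told apart.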

How the data were processed

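RNA was copied, amplified by PCR and labelled with Cy3 or Cy5, per the labels' protocols, and the PCR step can change ratios. The authors deposited 1 score per feature and array, a log-like ratio whose SD was 1 in each column. How the scanner values were corrected, normalized and scaled, and the log base, the sources used here do not give. The design assumed a ratio, and the same test was run on these scores. Features with exactly 1 symbol in the platform annotation of the array were averaged per gene, with symbols updated by gene identifier (31700 of 41230 features with a value; 47 had several symbols and 9483 none). The table tested held 19088 genes and further unnamed features, 28618 in all.

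Identical columns entered once. The fit was limma 3.58.1 in R 4.3.3 with an intercept and the orientation as random block, whose correlation duplicateCorrelation put at 0.793, then empirical Bayes moderation and Benjamini-Hochberg adjustment (threshold 0.05). It was also run on simulated data with the block structure that the fit assumes, which does not test how it does under other differences between the arrays. The members, lists, motifs and tests were chosen with earlier results of these data known. Any synthetase gene may be named. From each other list the 3 genes with the smallest p are named, with exceptions stated.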

Additional observations from a re-analysis of the deposited data

Results flagged for a closer look

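For 17 of the 35 synthetase genes the Cy5 arrays differed from the Cy3 profile in limma's test of the dye term (adjusted p under 0.05). This compares with 39.1% of all features and 7738 of the 19088 genes with a symbol. The error of this test rests on the spread of the 3 Cy5 arrays, and a dye effect cannot be told apart from any other difference between the orientations. The differences (mean of the Cy5 arrays minus the Cy3 profile) were positive for Lars2 (2.28 SD units), Rars (1.67), Nars (1.39), Sars (1.31), Iars (0.59) and Qars (0.46). They were negative for Pars2 (−1.86), Farsb (−1.65), Mars (−1.35), Kars (−1.03), Mars2 (−1.0), Gars (−0.96) and Vars (−0.94). They were also negative for Yars2 (−0.75), Eprs (−0.75), Fars2 (−0.71) and Wars (−0.51). Of the 5 called genes Rars, Farsb and Eprs are among these 17, and Yars and Sars2 are not.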

How the results depend on the processing

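Of 401 values of single synthetase genes under the alternatives, 324 kept their direction and their side of the threshold, 52 gained the call, 14 lost it and 11 changed sign; 0 of the sign changes belonged to the 5 called genes. The count of 5 called synthetase genes became 26 with a fixed dye term, 13 with neither block nor dye term, 27 on the Cy5 arrays by themselves, and 0 with the orientation means as 2 replicates, where limma gave 8 genes an unadjusted p under 0.05. Over all features 2406 calls became 12879, 6869, 16783 and 0 (3975 with an unadjusted p under 0.05) in the same order, and 3673 with the identical columns counted singly. Leaving out 1 Cy5 array gave 3 called genes each time (Rars, Yars and Eprs), 1232 to 1388 calls over all features, and a mitochondrial median of −0.20 to −0.11 against −0.17; with only 3 profiles the correlation of all 4 was kept. With the median of the features the cytosolic median was 0.25 and its difference from the mitochondrial one 0.38, and with every feature tested singly they were 0.22 and 0.43, against 0.46 and 0.62. Farsb lost its call with columns centred on their median, with quantile normalization and with every feature tested singly (effects 1.71, 1.67 and 1.73). The effects that changed sign were those of Sars (0.28 with neither term, 0.60 on the Cy5 arrays, 0.0043 with quantile normalization, 0.0027 with the median of features, and −0.034 to 0.010 without 1 Cy5 array, above 0 without replicate 2, against −0.0002), Ears2 (0.018 with neither term and 0.077 on the Cy5 arrays), Aars2 (−0.042 to 0.13 without 1 Cy5 array, below 0 without replicate 2), and on the Cy5 arrays Farsa (−0.0003), Fars2 (−0.047) and Pars2 (−0.011). The cause was not tested. Arrays of the 2 orientations could not be paired, because the identical Cy3 columns leave 1 profile and the orientations share no replicate numbers. Filters on dim features were not run, since no intensities were used here.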
